A study of Mus musculus with 8 samples.

Results

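Messenger RNA of 10 adhesion genes was followed in lymph node cells of mice before and after immunization. The genes encode the hyaluronan receptor CD44 (Cd44), the selectin ligand PSGL-1 (Selplg) and 8 integrin chains (Itgal, Itgb1, Itgb2, Itga4, Itgb7, Itgae, Itga6 and Itgav). They were chosen by name, with earlier results of these data known. Every probe set that the array annotation gives to 1 of the 10 genes was taken, 21 in all. A probe set is a group of short oligonucleotides that reads out 1 transcript or a few. The annotation names 12393 genes through probe sets of 1 symbol, so the 10 genes are a small part of the array. Of the 21 probe sets, 17 passed a filter on low values and were tested. These 17 represent 9 genes, since the single probe set of Itgal did not pass.

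The cells came from B10.BR mice, an inbred strain, and were purified by flow cytometry. There were 3 groups, naive mice (3 arrays), mice 7 days after immunization (3 arrays) and mice 28 days after immunization (2 arrays). What the mice were immunized with and which cells were sorted is not stated in the labels, which also give no age or sex and do not say whether replicates were separate animals, so a p-value here covers only the spread among these samples, which may be technical. All values are log2 ratios of a probe set's signal to the median that the same probe set has across all 8 arrays. Probe sets with a median ratio below 1 appear to have been divided by a higher minimum (called the floor here); this was inferred from the values and is not stated in the sources used here. The levels of different genes or probe sets therefore cannot be compared, and a difference of 1 is a 2-fold difference in signal.

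Lymphocytes leave the blood and find their place in tissue through such receptors. PSGL-1 binds selectins and slows a cell on the vessel wall, and integrins, each a pair of an alpha and a beta chain, then hold it there. Integrin beta 2 with alpha L forms LFA-1, which binds ICAM proteins. Integrin alpha 4 binds VCAM-1 when paired with beta 1, and the mucosal addressin MAdCAM-1 when paired with beta 7. Integrin alpha E with beta 7 binds E-cadherin on epithelium, and the beta 1 pairs with alpha 6 and the pairs of alpha V bind laminins, vitronectin and other matrix proteins. CD44 binds the matrix sugar hyaluronan and is widely used as a surface marker of T cells that have met antigen.

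Facts that bear on all values came first. In a principal component analysis of all tested probe sets, the leading component (43.7% of the variance) put naive replicate 1 at -44.5, beside the day 7 arrays (-71.7 to -55.4), whereas the other naive arrays and the day 28 arrays lay between 35.2 and 85.4. The 18 probe sets for bacterial spike-in RNA of the hybridisation divided the arrays likewise. Over these probe sets the median log2 ratio lay between -1.70 and -1.03 on naive replicate 1 and the day 7 arrays (low spike-in arrays) and between 0.64 and 1.41 on the other 4 (high spike-in arrays). Day 7 against naive can be compared inside the low set (with 1 naive array) and day 28 against naive inside the high set. A fit with a term for the spike-in set therefore compares the day 7 arrays with naive replicate 1 alone. A day 7 call that ends with this term does not show that the difference was absent. Day 28 against day 7 has no comparison inside a set, so there the times and the spike-in sets cannot be told apart except through the naive arrays. Marker genes of B cells (7 of 10 listed genes tested, Pax5 being too dim) had mean log2 ratios of -0.99 to -0.35 in naive replicates 1 to 3, -0.32 to -0.14 at day 7, and 4.08 and 3.50 on day 28 replicates 1 and 2. T cell markers (9 of 10 tested) lay between -0.71 and 0.77 with overlapping groups, and 0 of them passed the test in any comparison. In sorted bulk samples, more cells of a type and more RNA per cell cannot be told apart.

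At day 7, 1 of the 17 tested adhesion probe sets rose and 1 fell against naive arrays by limma, at an adjusted p under 0.05 over all 13042 tested probe sets. These were a probe set of Cd44, 21.9-fold higher, and that of Selplg, 7.94-fold lower. Over all tested probe sets, 1.17% were called in this comparison (1.06% higher and 0.107% lower). By limma, 0 of the 17 were called at day 28 against naive arrays, where 0.322% of all probe sets were called (0.268% higher, 0.0537% lower), and 0 against day 7, where 1.3% were called (0.422% higher, 0.882% lower). At an unadjusted p under 0.05, 5 of 17 passed between day 7 and naive arrays (15.5% of all probe sets), 5 of 17 between day 28 and naive arrays (6.34%) and 3 of 17 between the later times (16.5%). Each pair of comparisons shares a group of arrays, so they are not independent. The median log2 difference of the 17 was -0.13, 0.11 and 0.22 in the same order, and that of all tested probe sets was 0.11, -0.049 and -0.16.

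**Figure D1:**
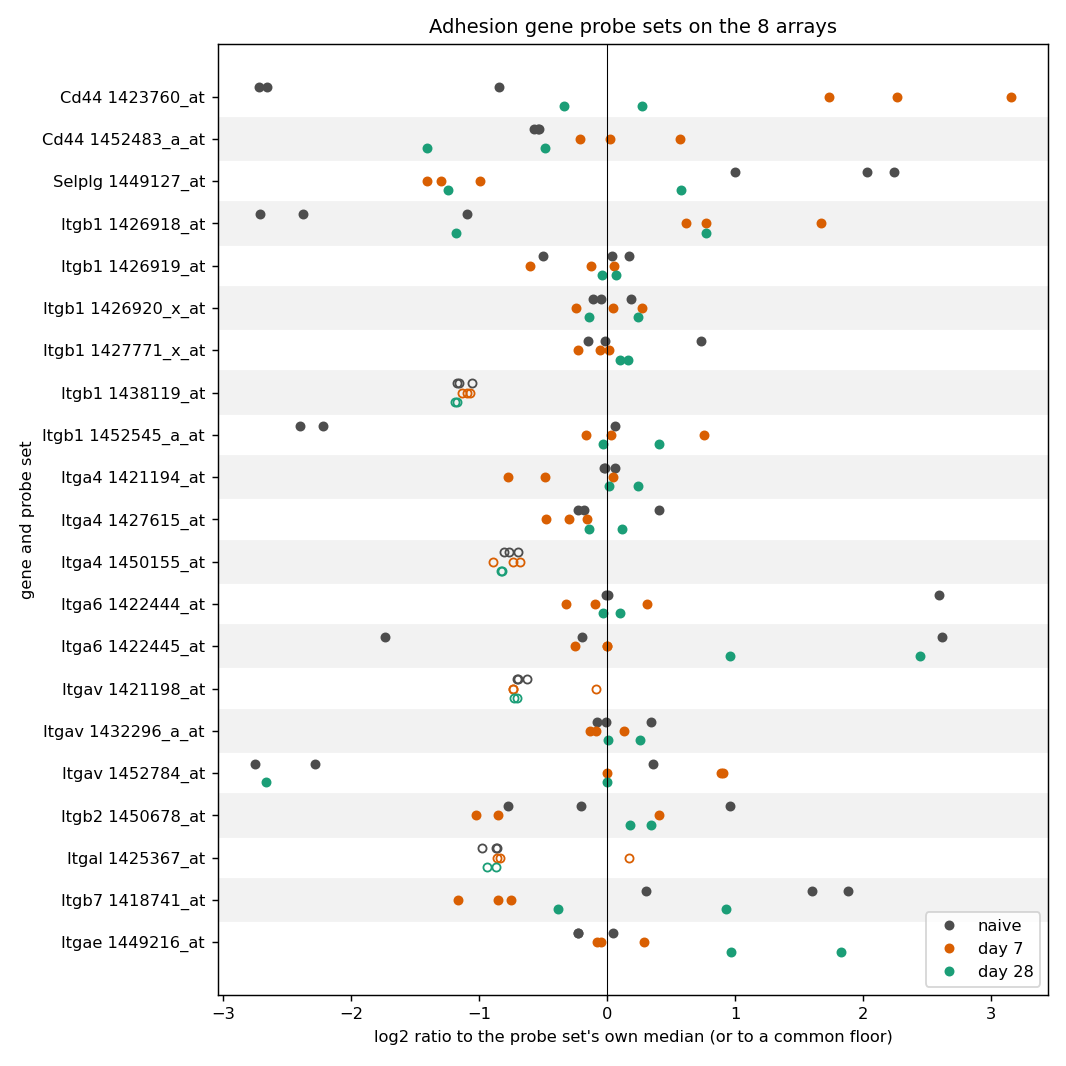
Log2 ratio of the 21 adhesion probe sets (rows) on the 8 arrays, with 1 point per array coloured by group; open points are the 4 probe sets that were not tested. The day 7 points of Cd44 1423760_at lie at 1.73 and above, right of every other array, and those of Selplg lie at -0.99 and below, left of every naive array.

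Cd44 has 2 probe sets on this array, and they gave different answers. By probe set 1423760_at, Cd44 (gene ID 12505) gave log2 ratios of -0.84, -2.65 and -2.72 on naive replicates 1, 2 and 3. They were 3.15, 2.26 and 1.73 in the day 7 arrays, and -0.33 and 0.27 in the day 28 pair. All day 7 arrays lay above all naive arrays, the day 28 arrays lay between both groups without overlap, and naive replicate 1 stood above the other naive arrays. The mean was -2.07 ± 1.06 (SD, n = 3) in naive, 2.38 ± 0.72 (n = 3) at day 7 and -0.031 ± 0.43 (n = 2) at day 28. The rise at day 7 was 4.45 ± 0.60 on the log2 scale (SE, 95% interval 3.07 to 5.84, limma adjusted p = 0.0198). Day 28 arrays differed from naive arrays by 2.04 ± 0.67 (adjusted p = 0.567) and from day 7 arrays by -2.41 ± 0.67 (adjusted p = 0.139), and neither passed.

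By probe set 1452483_a_at, whose suffix marks a set that matches several transcripts of the same gene, Cd44 gave log2 ratios of -0.53, -0.54 and -0.57 in naive replicates 1 to 3. They were 0.57, 0.024 and -0.21 in the day 7 arrays, and -0.49 and -1.41 in the day 28 pair. Day 7 arrays again lay above naive arrays without overlap, but the difference was 0.68 ± 0.35 (95% interval -0.12 to 1.48, adjusted p = 0.386). The day 28 arrays lay on both sides of the naive mean, with a difference of -0.40 ± 0.39 (adjusted p = 0.998). This probe set had a median ratio of 0.703 over the 8 arrays, below 1. Centred on their means, the profiles of both sets differed by a root mean square of 1.78 log2 units over the 8 arrays. The mean of both sets rose by 2.57 ± 0.39 at day 7 (limma adjusted p = 0.0233 in a fit over genes). Which part of the transcript each set reads is not given in the sources used here.

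The rise of Cd44 by 1423760_at had a log2 difference of 3.23 inside the low spike-in arrays (day 7 against naive replicate 1), and day 28 against naive was 2.65 inside the high spike-in arrays. With a term for the spike-in set the day 7 call ended (3.23, adjusted p = 0.150), as it did with no filter (0.0653) and with the replicate number as a block (0.0648). It also ended without naive replicate 2 (adjusted p = 0.105) or 3 (0.0937), and without day 7 replicate 1 (0.0533), 2 (0.0638) or 3 (0.0726), with log2 differences of 4.07 to 4.78. Without naive replicate 1 the rise was 5.07 (adjusted p = 0.0047), in a comparison where 13.2% of all probe sets were called. The difference between day 28 and day 7 of -2.41 then passed (adjusted p = 0.0321), where 6.21% of all probe sets were called.

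**Figure D2:**
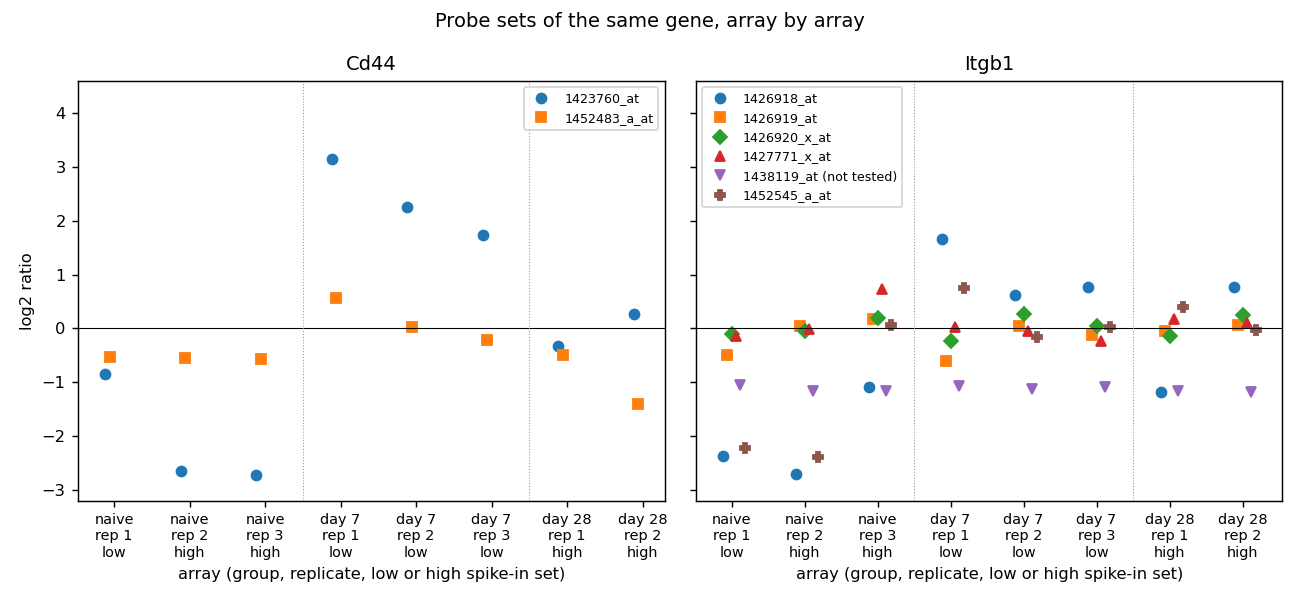
Log2 ratio of each probe set of Cd44 (left) and Itgb1 (right) on the 8 arrays, labelled by group, replicate and spike-in set; each symbol is 1 probe set. In Cd44, 1423760_at spans 5.87 log2 units and 1452483_a_at 1.97; in Itgb1, 1426918_at and 1452545_a_at span 4.38 and 3.15 and the other sets under 1.

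The upstream sequences of Cd44 and Itgb1 are shown for reference, since each holds 1 of the 2 probe sets with the largest positive log2 differences at day 7 among the 17. By the mean over each gene's tested probe sets, Itgav (1.02) lay above Itgb1 (0.88). They are the 250 bases before the gene start, in RefSeq's GRCm38.p6 assembly, at chr2:102901666-102901915 (minus strand) for Cd44 and chr8:128685404-128685653 (plus strand) for Itgb1. Both are written 5′ to 3′ along the gene, and capitals mark the Ets core GGAAG, searched on both strands.
Cd44: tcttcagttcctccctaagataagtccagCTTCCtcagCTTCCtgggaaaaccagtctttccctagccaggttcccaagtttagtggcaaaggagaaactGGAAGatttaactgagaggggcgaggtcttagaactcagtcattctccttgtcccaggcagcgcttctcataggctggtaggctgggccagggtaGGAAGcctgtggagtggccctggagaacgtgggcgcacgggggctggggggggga
Itgb1: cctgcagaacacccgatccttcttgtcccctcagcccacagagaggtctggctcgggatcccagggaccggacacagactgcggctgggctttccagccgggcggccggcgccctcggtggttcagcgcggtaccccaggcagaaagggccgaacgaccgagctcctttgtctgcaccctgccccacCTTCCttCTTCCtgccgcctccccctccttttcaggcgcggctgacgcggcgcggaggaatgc
The Cd44 window held 4 Ets cores, 0 matches to the KLF core CACCC and 0 to the GC box motif GGGCGG, searched on both strands, and the Itgb1 window held 2, 2 and 1 in this order, with 0 overlaps between matches. Of 32851 windows of the same length, 64.1% held an Ets core, 52.0% a KLF core and 32.7% a GC box motif, so these letters are common. Windows were found for 5 of the 10 genes. Those of Itga4, Itgav and Itgb7 held 0, 2 and 1 Ets cores and 4, 1 and 4 KLF cores. The G and C content was 56.4% for Cd44, 68.0% for Itgb1 and a median of 52.4% over all windows.

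Selplg, the gene of PSGL-1, fell at day 7. Its probe set 1449127_at (gene ID 20345) gave log2 ratios of 1.0, 2.24 and 2.03 in naive replicates 1 to 3. They were -1.30, -0.99 and -1.41 in the day 7 arrays, and -1.24 and 0.58 in the day 28 pair. Every naive array was above every other array, the day 7 arrays lay close together, and the day 28 arrays lay far apart, 1 of them among the day 7 values. The means were 1.76 ± 0.66 (SD, n = 3), -1.23 ± 0.22 (n = 3) and -0.33 ± 1.29 (n = 2). At day 7 Selplg fell by 2.99 on the log2 scale (SE 0.53, 95% interval -4.22 to -1.76, limma adjusted p = 0.0493). The difference at day 28 against naive was -2.09 ± 0.59 (adjusted p = 0.464), and day 28 against day 7 was 0.90 ± 0.59 (adjusted p = 0.497).

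The fall of Selplg passed narrowly. Some marker lists (CD8 T cell, B cell, and monocyte and macrophage) also had non-overlapping mean log2 ratios on naive and day 7 arrays. All were higher at day 7. From the highest naive to the lowest day 7 array, the gap was narrow for B cell (-0.35, -0.32) and monocyte markers (-0.186, -0.177). Of all tested probe sets, 22.1% did not overlap in this comparison. The part of these cells in the Cd44 and Selplg differences was not tested. The log2 difference of Selplg was -2.23 inside the low spike-in arrays, and day 28 against naive was -2.47 inside the high ones. The day 7 call ended with the spike-in term (adjusted p = 0.379), no filter (0.121), a stricter filter (0.0563), trended and robust variance (0.0734) and the replicate block (0.0739). It ended without naive replicate 2 (0.206) or 3 (0.173) and without day 7 replicate 1 (0.138), 2 (0.112) or 3 (0.239), while the log2 difference stayed between -3.37 and -2.75 over all arrays left out in turn. At day 28 the difference from naive arrays was -3.0 without replicate 2 and -1.17 without replicate 1.

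Itgb1, which encodes the beta 1 chain shared by the VLA integrins, has 6 probe sets, of which 5 were tested and 0 were called. By 1426918_at (gene ID 16412), Itgb1 gave log2 ratios of -2.37, -2.71 and -1.10 in naive replicates 1 to 3, 1.67, 0.62 and 0.77 in the day 7 arrays, and -1.18 and 0.77 in the day 28 pair. The day 7 arrays lay above the naive arrays without overlap, and the day 28 arrays lay 1 in each range. The log2 difference at day 7 was 3.08 ± 0.63 (95% interval 1.61 to 4.54, adjusted p = 0.0790), and it was 3.39 inside the low spike-in arrays. Day 28 against naive was 1.86 ± 0.71 (adjusted p = 0.702), and 1.70 inside the high ones. Without naive replicate 1 the difference at day 7 against naive was 2.92 and passed (limma adjusted p = 0.0417).

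By 1452545_a_at, Itgb1 had -2.22, -2.40 and 0.063 in naive replicates 1 to 3, 0.76, -0.16 and 0.030 in the day 7 arrays, and 0.41 and -0.031 in the day 28 pair. Naive replicate 3 lay among the immunized arrays and the other naive arrays far below, so the groups overlapped (difference at day 7 1.72 ± 0.65, adjusted p = 0.275; at day 28 1.70 ± 0.73, adjusted p = 0.781). Inside the spike-in sets these differences were 2.43 and 1.35. The other tested sets, 1426919_at, 1426920_x_at and 1427771_x_at, stayed between -0.60 and 0.74 on all arrays, with log2 differences of -0.28 to 0.019 at day 7 and -0.055 to 0.11 at day 28 against naive. The suffix _x_at marks sets with some probes that can also match other transcripts. The untested set 1438119_at lay between -1.19 and -1.06 on all arrays. The mean over the 5 tested sets had a difference of 0.88 ± 0.35 at day 7 (adjusted p = 0.262) and did not pass.

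The alpha chains that pair with beta 1 showed no called difference. Itga4, the alpha 4 chain of VLA-4, stayed within -0.77 and 0.40 by both tested sets. By 1421194_at it had -0.020, 0.066 and -0.014 in naive replicates 1 to 3, -0.77, 0.045 and -0.49 in the day 7 arrays, and 0.014 and 0.24 in the day 28 pair, with a log2 difference of -0.42 ± 0.30 at day 7 (95% interval -1.10 to 0.27, adjusted p = 0.509). By 1427615_at the difference was -0.31 ± 0.29 (95% interval -0.98 to 0.36, adjusted p = 0.615). Inside the low spike-in arrays they were -0.39 and -0.087. Both intervals lie below a rise of 1 log2 unit at day 7, which holds for the values of these probe sets only. The set 1427615_at had a median ratio of 0.891, below 1, so it appears to have been divided by the floor. The remaining set of Itga4, 1450155_at, was not tested and lay between -0.89 and -0.68 on all arrays.

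Itga6, the alpha 6 chain of laminin receptors, was set apart by naive replicate 1 in 1 of its 2 probe sets. By 1422444_at (gene ID 16403) it had 2.60 on that array and between -0.32 and 0.31 on the other 7. By 1422445_at it had 2.62, -0.19 and -1.74 in naive replicates 1 to 3, -0.25, 0.0014 and -0.0014 in the day 7 arrays, and 0.96 and 2.45 in the day 28 pair. By this second set the naive arrays spanned 4.36 log2 units, the whole range of the 8 arrays, and the day 28 arrays lay above all day 7 arrays (difference 1.79 ± 1.11, 95% interval -0.80 to 4.37, adjusted p = 0.475). Inside the high spike-in arrays day 28 was 2.67 above naive by 1422445_at and 0.038 by 1422444_at. Day 7 against naive was -0.31 ± 1.0 by 1422445_at and -0.90 ± 0.68 by 1422444_at (adjusted p = 0.894 and 0.534), but -2.70 and -2.63 inside the low spike-in arrays, where naive replicate 1 is the only naive array.

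Itgav, the alpha V chain of vitronectin receptors, also differed between its probe sets. By 1452784_at (gene ID 16410) it had 0.36, -2.75 and -2.28 in naive replicates 1 to 3, -0.0029, 0.89 and 0.90 in the day 7 arrays, and -2.66 and 0.0029 in the day 28 pair. Naive replicate 1 and 1 day 28 array lay near the day 7 arrays, and the other naive arrays and the other day 28 array lay low. The difference at day 7 was 2.16 ± 0.94 (95% interval -0.031 to 4.34, adjusted p = 0.327), but 0.24 inside the low spike-in arrays. Day 28 arrays differed from naive arrays by 0.23 ± 1.05 (adjusted p = 0.998), and 1.18 inside the high spike-in arrays. Without naive replicate 1 the difference at day 7 against naive was 3.11 and passed (limma adjusted p = 0.0386). By 1432296_a_at Itgav stayed between -0.13 and 0.35 (difference at day 7 -0.11 ± 0.27, adjusted p = 0.852). Its remaining set, 1421198_at, was not tested.

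The chains of LFA-1 were measured by 1 probe set each. Itgb2, the beta 2 chain, is shared with other leukocyte integrins such as Mac-1. Its probe set (1450678_at, gene ID 16414) gave log2 ratios of -0.20, 0.96 and -0.78 in naive replicates 1 to 3, 0.41, -1.02 and -0.85 in the day 7 arrays, and 0.18 and 0.35 in the day 28 pair. The groups overlapped in every comparison with naive arrays, and the spread within naive (SD 0.88) and day 7 (SD 0.78) exceeded the difference of -0.48 ± 0.54 (95% interval -1.75 to 0.78, adjusted p = 0.679). Inside the low spike-in arrays it was -0.29, and day 28 against naive was 0.17 inside the high ones. Itgal, the alpha chain, had only the untested set 1425367_at (gene ID 16408). It lay between -0.97 and -0.84 on 7 arrays and at 0.17 on day 7 replicate 1, and did not pass the filter on low values, so LFA-1 itself was not followed.

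Of the mucosal chains, Itgb7 had its lowest values at day 7 and Itgae its highest at day 28, and neither passed the test. Itgb7 (1418741_at, gene ID 16421), the beta 7 chain, gave log2 ratios of 0.30, 1.89 and 1.60 in naive replicates 1 to 3, -0.75, -1.16 and -0.85 in the day 7 arrays, and -0.38 and 0.93 in the day 28 pair. All day 7 arrays were below all other arrays, and the day 28 arrays overlapped the naive range. The difference at day 7 was -2.18 ± 0.51 (95% interval -3.37 to -1.0, limma adjusted p = 0.108). It was -1.22 inside the low spike-in arrays, and day 28 against naive was -1.47 inside the high ones. Without naive replicate 1 the difference at day 7 against naive was -2.67 and passed (limma adjusted p = 0.0127).

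Itgae (1449216_at, gene ID 16407), the alpha E chain also known as CD103, had -0.23, 0.045 and -0.23 in naive replicates 1 to 3, -0.077, -0.047 and 0.29 in the day 7 arrays, and 1.83 and 0.97 in the day 28 pair. Both day 28 arrays lay above the other 6. The difference was 1.54 ± 0.35 against naive (95% interval 0.72 to 2.35, adjusted p = 0.253) and 1.34 ± 0.35 against day 7 (95% interval 0.53 to 2.16, adjusted p = 0.121). It was 1.49 inside the high spike-in arrays, and 1.97 and 1.11 against naive without day 28 replicates 2 and 1.

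Several marker lists also had their highest values on the day 28 arrays. Besides the B cell genes given above (6 of 7 tested genes called higher at day 28 against naive), CD8 T cell markers (5 of 5 tested) had mean log2 ratios of -1.03 to -0.68 in naive replicates 1 to 3, -0.16 to 0.57 in the day 7 arrays, and 1.58 and 1.03 in the day 28 pair, with Cd8b1 called higher against naive by limma. Of these 5 genes 1 (Nkg7) was called higher at day 7 against naive and 2 (Cd8a and Cd8b1) at day 28 against day 7. Monocyte and macrophage markers (5 of 9 tested) had -1.04 to -0.19, -0.18 to 0.37, and 1.71 and 0.44, with 0 called. Dendritic cell markers (2 of 7 tested) lay between -0.40 and 0.37 on all arrays. The defining genes Xcr1, Zbtb46 and Cd209a did not pass the filter. NK cell markers (3 of 7 tested) had -0.42 to -0.14, -0.49 to 0.87, and 1.51 and 0.98. Neutrophil markers (3 of 8 tested) ran from -0.53 to 2.25 with overlapping groups, erythroid and platelet markers (2 of 7) from -0.76 to 1.91, and 0 of 8 stroma and endothelium markers on the array passed the filter. The part of these cells in the values of the adhesion genes at either time was not tested.

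**Figure D3:**
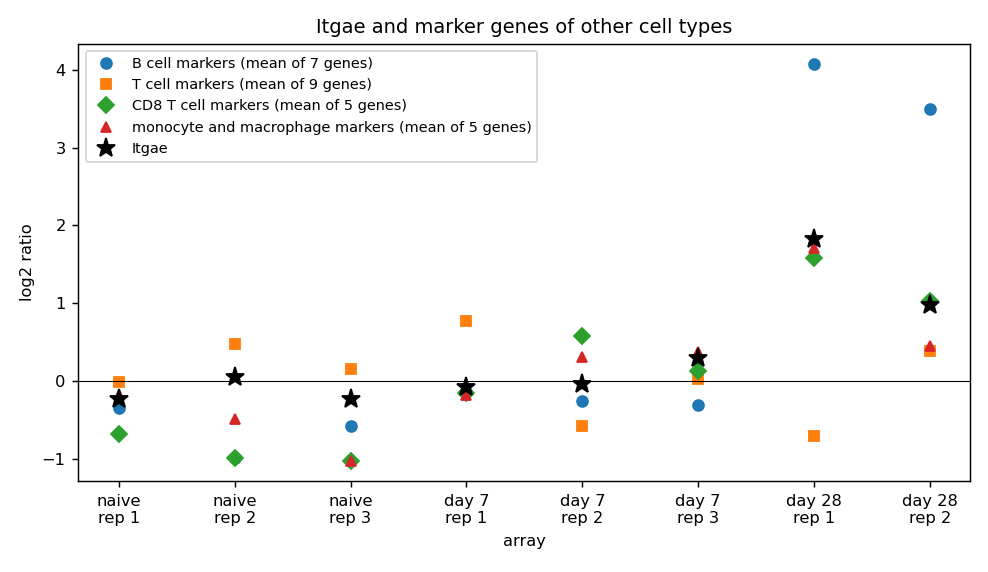
Log2 ratio of Itgae (stars) and mean log2 ratio of 4 marker lists on each of the 8 arrays. Itgae stands at 1.83 and 0.97 on the day 28 arrays, where B cell markers stand at 4.08 and 3.50 and CD8 T cell markers at 1.58 and 1.03.

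Without naive replicate 1, 5 of the 17 probe sets passed at day 7 against naive, those of Cd44 (1423760_at), Selplg, Itgb1 (1426918_at), Itgav (1452784_at) and Itgb7. That fit called 13.2% of all tested probe sets, against 1.17% with all arrays. Groups that did not overlap were found for 5 of 17 probe sets at day 7 against naive (3 higher, 2 lower), beside 22.1% of all probe sets (13.4% higher, 8.61% lower). Day 28 and naive arrays did not overlap for 3 of 17 (2 higher, 1 lower), beside 17.6% of all (7.76% higher, 9.88% lower). Day 28 and day 7 arrays did not overlap for 7 of 17 (5 higher, 2 lower), beside 44.9% of all (15.2% higher, 29.7% lower).

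**Figure D4:**
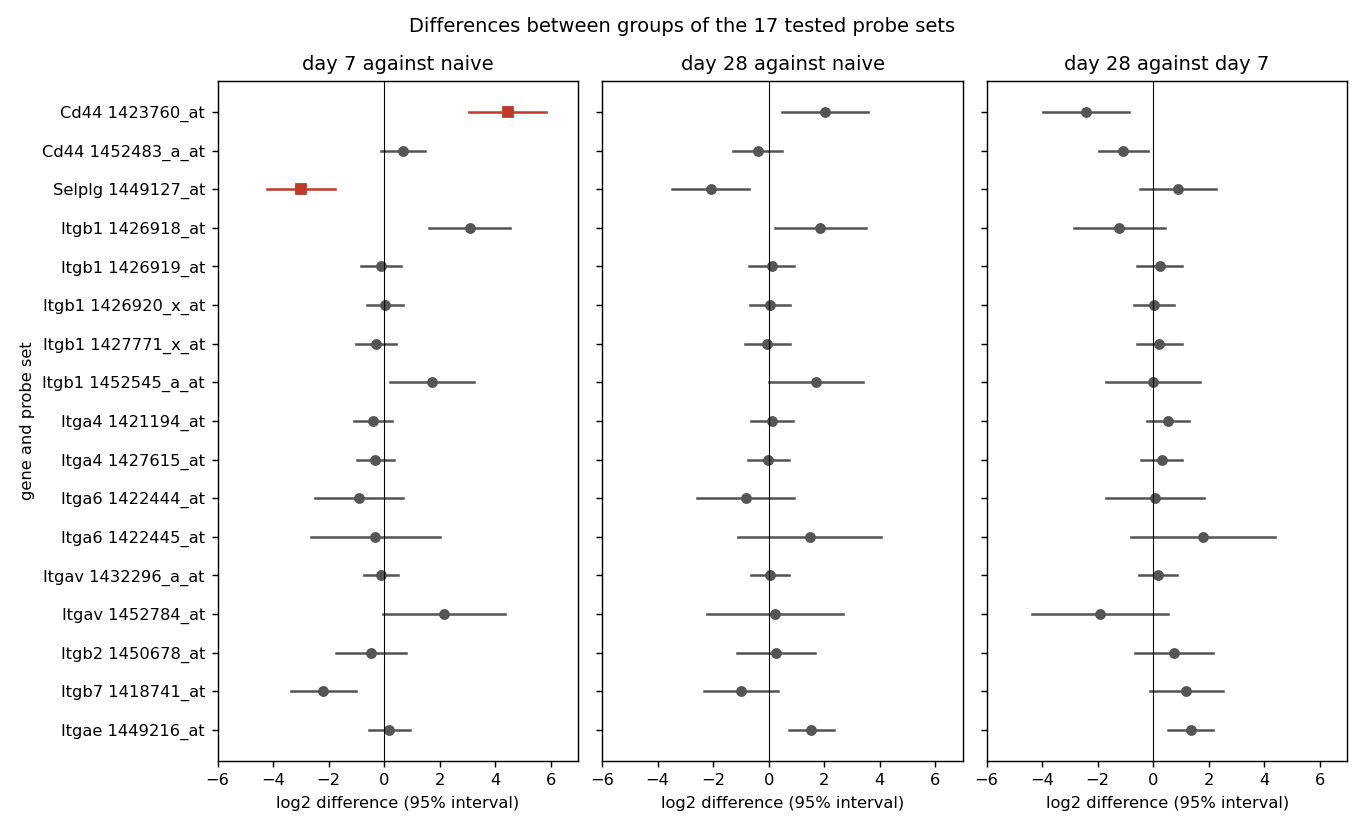
Log2 differences of the 17 tested probe sets in the 3 comparisons, with 95% intervals from limma's moderated standard errors; red squares are the 2 called differences. At day 7 against naive Cd44 1423760_at stands at 4.45 and Selplg at -2.99, and at day 28 no interval carries a call.

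Other genes of leukocyte adhesion were taken from 7 lists with 141 genes, of which 125 were on the array and 73 had a tested probe set (111 probe sets). At day 7 against naive 4 of the 111 probe sets rose, of 3 genes, and 0 fell (1.06% and 0.107% of all probe sets). At day 28 against naive 1 rose and 0 fell (0.268% and 0.0537% of all). At day 28 against day 7 1 rose and 2 fell (0.422% and 0.882% of all). The median log2 difference of the 111 was -0.080, -0.031 and -0.032, beside 0.11, -0.049 and -0.16 for all probe sets. The lists of other integrin chains (2 genes tested of 14 on the array), selectin ligand glycosylation enzymes (10 of 14) and integrin ligands on cells (7 of 13) had 0 called in any comparison by limma. Proteins that activate integrins and link them to actin were the best covered (31 of 35 genes, 49 probe sets), with 0 called against naive arrays at either time.

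Of the called genes, Nrp1, the receptor neuropilin-1, rose at day 7 by 4.06 ± 0.39 on the log2 scale by 1448944_at (limma adjusted p = 0.00663) and by 3.05 ± 0.42 by 1448943_at (adjusted p = 0.0205). Its remaining set, 1418084_at, had 3.50 (adjusted p = 0.0747). From day 7 to day 28 Nrp1 fell by 2.55 by 1448944_at (adjusted p = 0.0427), a call that ended with the spike-in term (0.362). Plxnc1, the semaphorin receptor plexin C1, which affects integrin adhesion, rose by 3.58 ± 0.61 at day 7 by 1450905_at (adjusted p = 0.0444), with 1.19 (adjusted p = 0.148) by 1423213_at.

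Hmmr, another hyaluronan receptor that also acts on the mitotic spindle, rose by 4.32 ± 0.72 at day 7 by 1425815_a_at (adjusted p = 0.0431), with 1.78 (adjusted p = 0.223) by 1450156_a_at. Cd24a, a ligand of P-selectin that B cells carry, rose by 4.17 ± 0.43 at day 28 against naive (1448182_a_at, adjusted p = 0.0128) and by 4.15 ± 0.43 against day 7 (adjusted p = 0.00801). Its other tested sets had 1.5 and 1.49 against naive (adjusted p = 0.409 and 0.395). The Cd24a call against day 7 ended with the spike-in term (adjusted p = 0.155). Lims1, an adaptor at integrin adhesions, fell by 3.80 from day 7 to day 28 by 1418230_a_at (adjusted p = 0.0439), whereas 1418232_s_at had 0.21 (adjusted p = 0.856). The Lims1 call ended with the spike-in term (adjusted p = 0.379).

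Partners of the 10 genes named by rule were Icam1, Tln1, Fut7 and Spn. Icam1, the ligand of LFA-1, had 0.87 at day 7 and 0.78 at day 28 against naive (adjusted p = 0.470 and 0.998). Tln1, the talin that binds integrin beta tails, had 0.28 by 1436042_at and -0.90 by 1448402_at at day 7 (adjusted p = 0.594 and 0.469). Fut7, which makes the selectin-binding sugar on PSGL-1, and Spn, the sialomucin CD43, were too dim to be tested. They lay between -0.74 and -0.25 and between -1.37 and -0.96 on all arrays.

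With the spike-in term, the calls of Nrp1 (adjusted p = 0.0854 and 0.210 at day 7 by 1448944_at and 1448943_at), Plxnc1 (0.269) and Hmmr (0.287) ended. All 3 calls between day 28 and day 7, times that lie in different spike-in sets, ended with it as well (Nrp1 adjusted p = 0.362, Cd24a 0.155 and Lims1 0.379). Cd24a against naive at day 28 kept its call with this term (adjusted p = 0.0228). There the term gave the same values as leaving out naive replicate 1, the only naive low spike-in array. These are therefore not separate checks. At day 7 against naive, the term likewise leaves naive replicate 1 as the only naive array compared. The calls that ended with it there cannot decide whether the rises hold. This Cd24a call ended with the replicate block (0.0811) and with only the 2 groups compared (0.157). The latter also ended the day 7 calls of Hmmr and Plxnc1 (adjusted p = 0.0725 for each) and Nrp1 1448943_at (0.0560). With the stricter filter, the calls of Plxnc1 (adjusted p = 0.0512), Lims1 (0.0549) and Nrp1 at day 28 against day 7 (0.0561) ended. Quantile normalization ended the last of these (adjusted p = 0.0590). Each call of these related genes ended with the replicate block and with at least 1 array left out. With no filter, the calls of Hmmr and Plxnc1 (adjusted p = 0.119 for each) and Lims1 (0.0958) ended. That of Nrp1 at day 28 against day 7 (0.0693) ended as well. The same calls ended with trended and robust variance, as did that of Nrp1 1448943_at at day 7 (0.0695). The call of Nrp1 1448944_at at day 7 ended without day 7 replicate 3 (adjusted p = 0.0545), and that of Cd24a at day 28 without day 28 replicate 1 (0.101 against naive, 0.0694 against day 7) and, against naive, without naive replicate 3 (0.0505).

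The genes whose profile over the 8 arrays lay closest to Cd44 1423760_at, each profile centred on its mean, were Srgn (root mean square distance 0.53 log2 units), Plxnc1 (0.54) and Lpxn (0.58). Srgn, the proteoglycan serglycin, gave log2 ratios of 0.089, -1.93 and -2.39 in naive replicates 1 to 3, 3.38, 1.90 and 2.45 in the day 7 arrays, and -0.10 and -0.45 in the day 28 pair. Closest to Selplg were Foxo1 (0.41), Gpr83 (0.41) and Pdlim1 (0.50). Foxo1, a transcription factor of resting lymphocytes, had 0.51, 1.53 and 1.70 in naive replicates 1 to 3, -0.80, -1.30 and -1.14 in the day 7 arrays, and -0.93 and 0.80 in the day 28 pair. In both sets of genes naive replicate 1 lay nearer to the day 7 arrays than the other naive arrays did. The genes were picked by their distance to Cd44 or Selplg on these same arrays, so this likeness follows from the choice.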

How the data were processed

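RNA was measured on Affymetrix mouse arrays in 8 samples. The authors deposited 1 table of linear ratios with 22690 probe sets. GCRMA was used for the signals, per the submitters' processing notes, which give no version. That each probe set was scaled to its median was read from the values: 47.9% of medians over the 8 arrays are 1 (within 0.0015) and none is higher. No source states this scaling or the floor. Control probe sets (64) were left out. Tests were run where 2 arrays or more had a ratio of 1 or more, which kept 13042 of 22626 probe sets. The log2 ratios were fitted with limma 3.58.1 (R 4.3.3), with 1 mean per group over the 8 arrays, two-sided tests and Benjamini-Hochberg adjustment over all tested probe sets at 0.05. All 10 gene IDs matched a RefSeq table with 0 changed symbols. Precision is limited by how few arrays there were.

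The members and gene lists were chosen with earlier results of these data known. By the rule for named genes, every member was named, as were related genes called in any comparison, a few fixed ones, and for each called probe set the 3 genes with the smallest profile distance. Alternatives were other filters, scalings, variance models, thresholds, a replicate block, a spike-in term, gene means over probe sets, and 1 array omitted in turn. Replicate numbers were not taken to pair arrays.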

Additional observations from a re-analysis of the deposited data

Results flagged for a closer look

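Both values come from probe sets that were too dim to be tested, on 1 array. Itgal 1425367_at had a log2 ratio of 0.17 on day 7 replicate 1, above its naive arrays (-0.97 to -0.86) by more than their range. Itgav 1421198_at had -0.089 on the same array, above its naive arrays (-0.70 to -0.62). The other day 7 arrays lay at -0.86 and -0.84 for Itgal and at -0.74 and -0.73 for Itgav, so neither signal was seen on another array. No group had 4 or more arrays, so no array could be checked as an outlier within its group.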

How the results depend on the processing

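Of the 51 log2 differences tested (17 probe sets in 3 comparisons), 23 changed sign under at least 1 alternative and 0 of these were called. The adhesion probe sets called at day 7 against naive numbered 2 with all arrays, and also 2 with median centring, quantile normalization and only the 2 groups compared. They numbered 1 with the stricter filter and with trended and robust variance, and 0 with no filter, the replicate block, the spike-in term and an adjusted p under 0.01. They ranged from 0 to 5 with each array left out. The count at day 28 against day 7 ranged from 0 to 1.

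Over all probe sets, the calls at day 7 against naive (152) numbered 94 with no filter, 76 with the stricter filter, 54 with trended and robust variance, 68 with only the 2 groups compared, 16 with the replicate block, 14 with the spike-in term and 31 at 0.01, and 17 to 1727 with each array left out. At day 28 against naive (42) they numbered 26 with the stricter filter, 19 with trended and robust variance, 0 with only the 2 groups compared, 9 with the replicate block and 13 at 0.01, and 2 to 57 with arrays left out. At day 28 against day 7 (170) they numbered 62, 52, 591, 15 and 28 in the same order, 0 with the spike-in term, and 25 to 810 with arrays left out. The causes were not tested.

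The labels pair no samples. For same-numbered naive and day 7 arrays, the correlations of deviations from group means were -0.23, -0.36 and 0.10. They were 0.12 and 0.12 for naive and day 28, and 0.17 and 0.09 for day 7 and day 28. Deviations within such small groups depend on each other, so these correlations cannot decide whether arrays were paired. Naive replicate 1 correlated best with day 7 replicate 2 (0.35).

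Signs turned as follows. With the spike-in term, day 7 against naive was 0.27 for Itgb1 1426919_at and 0.059 for 1427771_x_at. Day 28 against naive was 0.038 for Itga6 1422444_at, -0.091 for Itgb1 1426919_at and -0.015 for 1426920_x_at. Day 28 against day 7 was -0.035 for Itga4 1427615_at, 0.94 for Itgav 1452784_at, -0.37, -0.15 and -0.28 for Itgb1 1426919_at, 1426920_x_at and 1427771_x_at, -0.25 for Itgb7 and -0.23 for Selplg. With median centring and quantile normalization, Itgb1 1426920_x_at was -0.068 and -0.042 at day 7 against naive, Itga4 1427615_at 0.014 and 0.055 at day 28 against naive, and Itgb1 1452545_a_at 0.092 and 0.22 at day 28 against day 7. Itgb1 1427771_x_at was 0.022 with quantile normalization at day 28 against naive. With the replicate block, Itga4 1427615_at was 0.093, Itgb1 1427771_x_at 0.046 and Itgb2 -0.016 at day 28 against naive, and Itga6 1422444_at -0.16 and Itgb1 1452545_a_at 0.33 at day 28 against day 7.

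With each array left out, the ranges that crossed 0 were as follows. At day 7 against naive they were -1.30 to 0.88 for Itga6 1422445_at, -0.20 to 0.015 for Itgav 1432296_a_at, -0.33 to 0.061 for Itgb1 1426919_at and -0.11 to 0.15 for 1426920_x_at. At day 28 against naive they were -0.86 to 0.060 for Cd44 1452483_a_at, -0.14 to 0.19 for Itga4 1427615_at, -1.26 to 0.038 for Itga6 1422444_at, -0.081 to 0.18 for Itgav 1432296_a_at, -1.11 to 1.56 for Itgav 1452784_at, -0.091 to 0.24, -0.15 to 0.24 and -0.22 to 0.22 for Itgb1 1426919_at, 1426920_x_at and 1427771_x_at, and -0.12 to 0.75 for Itgb2. At day 28 against day 7 they were -0.070 to 0.24 for Itga6 1422444_at, -0.17 to 0.22 and -0.24 to 0.25 for Itgb1 1426920_x_at and 1452545_a_at, and -0.013 to 1.81 for Selplg. Without 1 day 28 array, the other is assumed to vary like the other groups.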
